A study of Mus musculus with 8 samples.

Results

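The 9 genes described here, through which blood vessel endothelium controls clotting and vessel diameter, were followed in slowly dividing and other biliary cells of the mouse liver. They were chosen by name as rows of the gene count table: Vwf, F8, Thbd, Procr, Tfpi, Plat, Nos3, Edn1 and Ednrb, which are 9 of its 46603 rows. RNA was sequenced from 8 libraries, an EGFP+ and an EGFP- library from each of 4 mice, named JV602, JV621, JV624 and JV6314, and values listed for a group follow this order. All mice carried R26rtTA het/H2B-EGFP het on a mixed C57BL/6 and CBA background, were given doxycycline from birth to postnatal day 5 and were sampled at 8 weeks of age. Doxycycline switches on a histone fused to EGFP through a transactivator in the Rosa26 locus, which is active in nearly all cell types, and the label is then diluted at each division. EGFP+ cells are the liver label-retaining cells (LLRCs), EGFP- cells are the non-LRC cells, and both were sorted as EpCAM+ CD45- cells according to the study's methods. The study also describes hematopoietic cells that express the fusion in these mice without doxycycline. The groups therefore share genotype, treatment, age and gate, and differ in the label.

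Endothelial cells keep blood fluid while remaining ready to stop bleeding. They store von Willebrand factor, the platelet adhesion protein that also carries factor VIII, and hold thrombin in check through thrombomodulin, the protein C receptor and tissue factor pathway inhibitor. They release tissue plasminogen activator to dissolve fibrin, and set vessel tone with nitric oxide and endothelin. In the liver, sinusoidal endothelium is a main source of factor VIII. Cholangiocytes, the epithelial cells that the EpCAM gate selects, line ducts that run beside portal vessels.

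Total counts lay between 7860021 and 9851819 in LLRC libraries and between 4670132 and 8056103 in non-LRC libraries, so that 3 counts equalled between 0.291 and 0.626 CPM (TMM-normalised read counts relative to library size). The non-LRC library of JV621 held the fewest detected genes, 14234, against up to 20430 in the other libraries. Transcripts of the sort marker EpCAM stood at 583 ± 48.6 CPM in the LLRC group and 551 ± 148 CPM in the non-LRC group (SD, n = 4 each), and all 12 cholangiocyte markers passed the expression filter. Ptprc, which encodes CD45, stood at 0.485, 4.02, 2.06 and 6.55 CPM in the LLRC group and at 0, 0, 0 and 1.38 CPM in the non-LRC group. It was thus low throughout and higher in LLRCs in all 4 mice. The endothelial markers Pecam1, an adhesion molecule of endothelial junctions, and Cdh5, the endothelial cadherin, averaged 40.2 ± 16.9 and 45.6 ± 38.5 CPM in the non-LRC libraries (SD, n = 4), although the gate names an epithelial population. In these bulk libraries fewer cells of a type and less RNA per cell cannot be told apart.

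Edn1 encodes the ligand endothelin-1 and Ednrb its type B receptor, and these 2 genes of 1 signalling pair had unlike fold changes, so the sequence just upstream of 1 RefSeq start of each is shown. Both are the 250 bases before the RefSeq start on GRCm38.p6, written 5′ to 3′ on the strand of the gene, with capitals marking the motif CACCC of KLF factors on either strand (read as GGGTG where it lies on the opposite strand). Edn1 lies at chr13:42301226-42301475 on the plus strand and Ednrb at chr14:103843702-103843951 on the minus strand.
Edn1: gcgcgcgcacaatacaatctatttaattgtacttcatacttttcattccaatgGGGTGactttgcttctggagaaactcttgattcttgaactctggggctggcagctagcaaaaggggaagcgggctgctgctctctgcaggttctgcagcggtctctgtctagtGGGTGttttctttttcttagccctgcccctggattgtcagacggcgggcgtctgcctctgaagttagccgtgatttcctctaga
Ednrb: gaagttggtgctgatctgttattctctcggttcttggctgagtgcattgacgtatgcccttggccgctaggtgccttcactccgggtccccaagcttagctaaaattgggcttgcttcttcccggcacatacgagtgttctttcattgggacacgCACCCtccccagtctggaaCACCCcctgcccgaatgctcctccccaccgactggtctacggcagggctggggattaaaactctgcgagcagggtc
Edn1 held the motif starting 197 and 84 bases before the start, and Ednrb 95 and 76 bases before it. CACCC occurred in 52% of 32851 mouse promoter windows of this length. A further 4 motifs were searched on both strands and none was found in either window. The hexamer AGGAAG, a longer form of the ETS motif, occurred in 29.5% of all windows, and shorter ETS sequences were not searched. For the motif AGATAA of the GATA factors this share was 9.99%. The AP-1 motif, written TGANTCA, was present in 6.75% and the box TATAAA in 12.4%. GC content was 50.4% for Edn1 and 56.8% for Ednrb. The Ednrb window lies inside the GENCODE M21 span of the gene, in an intron of its longest transcript and upstream of the starts of the shorter ones, whereas the Edn1 window ends where the GENCODE span of Edn1 begins. The bases just after the Ednrb RefSeq start were not held as a whole by a GENCODE transcript of the gene, and those after the Edn1 start were. Of the members, 5 had an entry in this table.

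Most of the 9 genes had lower values in LLRCs than in non-LRC cells. Vwf, F8, Thbd and Ednrb were lower in every LLRC library than in any non-LRC library, Tfpi and Edn1 were lower in LLRCs in all 4 mice with overlapping groups, Nos3 had few counts in any library, and Procr and Plat were low in both groups with no common direction. Of the 9, 8 passed the expression filter and entered edgeR's quasi-likelihood test, which covered 13605 genes. Vwf and Ednrb had LLRC values so low that they depended for this filter largely on the non-LRC libraries. No member had an adjusted p below 0.05 in that test, and 0 of 13605 genes did (0% of genes tested). At an unadjusted p below 0.05, edgeR placed 5 members lower in LLRCs and 0 higher, where 3.56% of all genes tested were lower and 1.6% higher. The groups did not overlap for 4 members, where all LLRC libraries were below all non-LRC libraries for 1.91% of genes tested and above them for 2.15%. LLRCs were lower in all 4 mice for 6 of the 8 members tested and for 5.53% of all genes tested. The median log2 fold change (LLRC over non-LRC) was -2.17 over the 8 members tested and -0.01 over all genes tested. Other tools gave other counts, and DESeq2's Wald test called 3 members (Vwf, Thbd and Ednrb) lower, where it called 1.29% of its genes lower and 0.366% higher. Without a filter, edgeR's exact test called Vwf, F8, Thbd and Ednrb lower, where it called 0.323% of genes lower and 0.0942% higher. A newer form of the quasi-likelihood dispersion in edgeR called Vwf and Ednrb lower, where it called 0.448% of genes lower and 0.0882% higher. Vwf, F8, Thbd and Ednrb also belong to the list of genes that the study itself chose on these libraries, so their direction is not independent evidence of it.

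**Figure D1:**
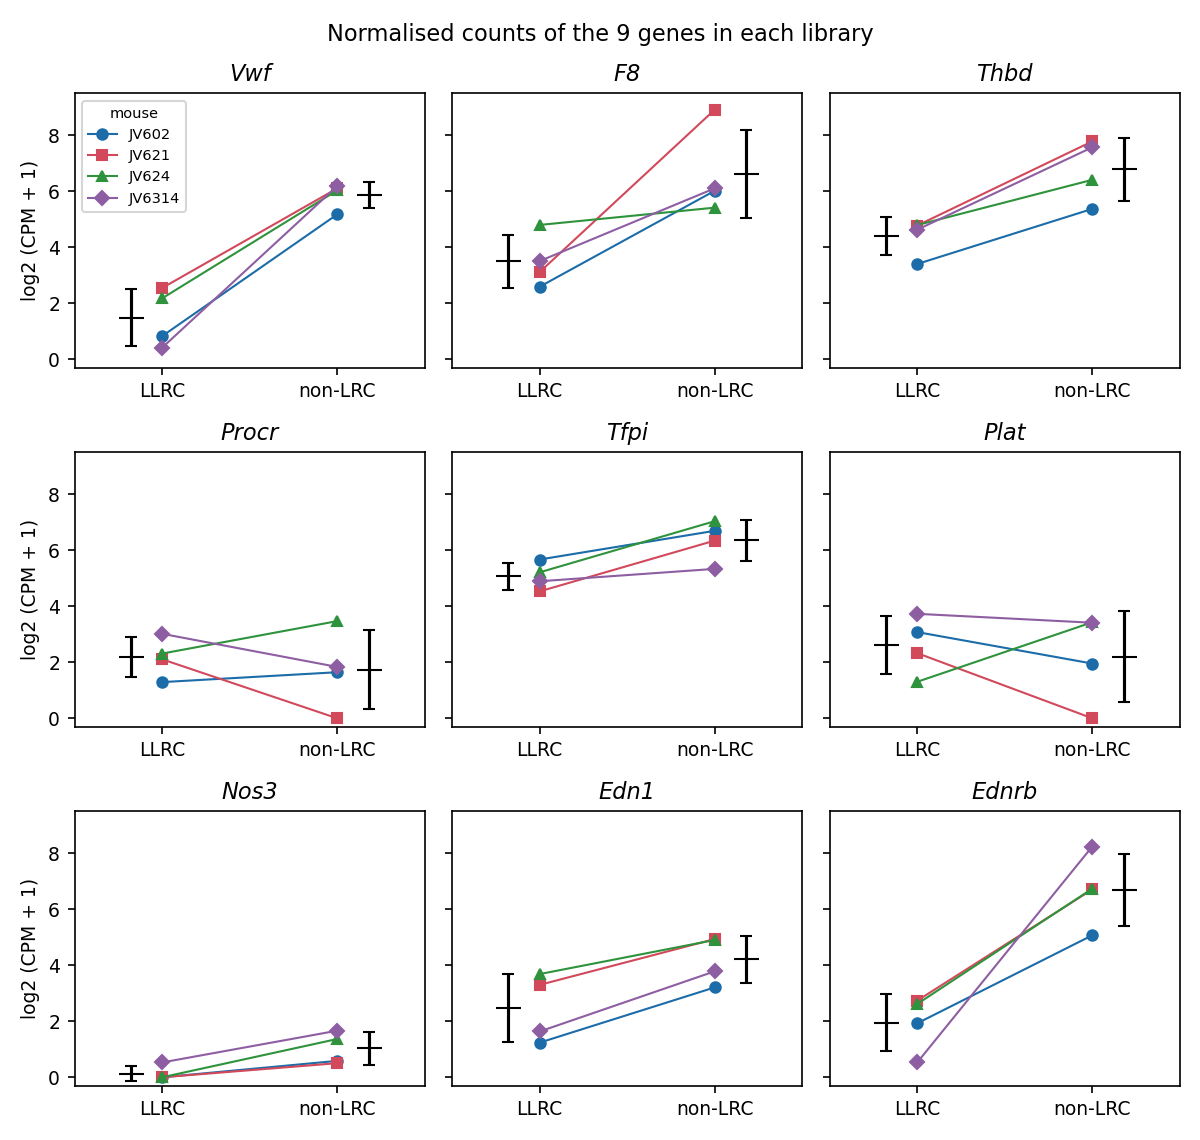
Normalised counts of the 9 genes as log2 (CPM + 1), with lines joining the LLRC and non-LRC library of a mouse and black bars giving the mean and SD of 4 libraries. Vwf, F8, Thbd and Ednrb separate the groups, with Ednrb at 0.444 to 5.68 CPM in the LLRC group and 32.7 to 303 CPM in the non-LRC group, while the lines of Procr and Plat cross.

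Vwf encodes von Willebrand factor, which tethers platelets to damaged vessel walls and protects factor VIII in plasma (chromosome 6, 125546774 to 125686679, plus strand, GRCm38). Its values were 0.775, 4.85, 3.53 and 0.333 CPM in the LLRC libraries and 35.2, 67.9, 64.7 and 72.0 CPM in the non-LRC libraries. The non-LRC values were the most even of all members, and the highest LLRC value lay well below the lowest of them. The means were 2.37 ± 2.17 and 59.9 ± 16.8 CPM (SD, n = 4). The log2 fold change was -4.66 with a standard error of 0.81, a 25.3-fold lower level (unadjusted p = 0.000251, adjusted p = 0.11 in edgeR's quasi-likelihood test). The LLRC libraries of JV602 and JV6314 held only 8 and 3 Vwf counts, so the size of the difference in these mice is limited by counting. Within the other mice the non-LRC level was 14.0-fold (JV621) and 18.3-fold (JV624) the LLRC level. Without the LLRC library of JV621 the log2 fold change was -5.28. Over 22 alternatives the adjusted p lay between 1.32e-07 (DESeq2's Wald test) and 0.483, with 3 of them below 0.05, and limma gave 0.0837.

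F8 encodes factor VIII, the cofactor whose loss causes hemophilia A (chromosome X, 75172715 to 75382615, minus strand). It stood at 5.04, 7.69, 26.9 and 10.4 CPM in the LLRC libraries and at 64.0, 484, 41.8 and 68.1 CPM in the non-LRC libraries. A single library, the non-LRC library of JV621 with 2317 counts, was far above the other non-LRC libraries, and in JV624 the non-LRC value was only 1.55-fold the LLRC value. The groups did not overlap, with means of 12.5 ± 9.85 and 164 ± 213 CPM (SD, n = 4). The log2 fold change was -3.72 with a standard error of 0.94 (unadjusted p = 0.00315, adjusted p = 0.343 in edgeR's quasi-likelihood test). When the non-LRC library of JV621 was left out, the log2 fold change was -2.21 and the non-LRC mean 58.0 CPM, and without the LLRC library of JV624 the log2 fold change was -4.40. DESeq2 gave no adjusted p for F8, and over the other 21 alternatives it lay between 0.0231 (edgeR's exact test) and 1, with only that 1 below 0.05. The log2 fold change by limma was -2.68 (adjusted p = 0.173).

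Thbd encodes thrombomodulin, which binds thrombin on the endothelial surface and turns it from a clotting enzyme into an activator of protein C (chromosome 2, 148404466 to 148408188, minus strand). Its values were 9.60, 26.5, 26.8 and 23.8 CPM in the LLRC group and 40.5, 220.1, 84.3 and 189.8 CPM in the non-LRC group. JV602 was lowest in both groups, and its non-LRC value was still above all LLRC values. The means were 21.7 ± 8.15 and 134 ± 85.1 CPM (SD, n = 4), a log2 fold change of -2.63 with a standard error of 0.58 (unadjusted p = 0.00139, adjusted p = 0.216 in edgeR's quasi-likelihood test). Within mice the non-LRC level was between 3.15-fold (JV624) and 8.31-fold (JV621) the LLRC level. Over 22 alternatives the adjusted p lay between 0.00137 (DESeq2's Wald test) and 1, with 2 of them below 0.05, and limma gave a log2 fold change of -1.86 with an adjusted p of 0.379.

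Procr encodes the endothelial protein C receptor, which presents protein C to the thrombin and thrombomodulin complex (chromosome 2, 155751117 to 155755471, plus strand). It stood at 1.45, 3.31, 3.97 and 7.11 CPM in the LLRC group and at 2.13, 0, 10.1 and 2.57 CPM in the non-LRC group. Values were low in all libraries, LLRCs were lower in 2 of 4 mice, and the non-LRC library of JV621 held 0 counts, which allows up to 0.626 CPM (3 counts, counting error only). The log2 fold change was 0.09 with a standard error of 1.08 (adjusted p = 1 in edgeR's quasi-likelihood test), and its sign turned in 7 of the alternatives, for example to -0.22 when library sizes were not TMM scaled. Protein C activation on endothelium uses both Thbd and Procr, and their log2 ratio within a library averaged 2.45 ± 0.52 in LLRCs and 5.71 ± 2.92 in non-LRC cells (SD, n = 4), a comparison chosen after its values were seen, not tested, in which a prior count stands in for the 0 of JV621.

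Tfpi encodes tissue factor pathway inhibitor, which blocks the start of clotting by tissue factor (chromosome 2, 84432855 to 84476775, minus strand). Its values were 50.1, 22.2, 36.2 and 28.8 CPM in the LLRC group and 103, 80.6, 131 and 39.5 CPM in the non-LRC group. LLRCs were lower in all 4 mice, by the least in JV6314 (1.37-fold), and the groups overlapped because the non-LRC value of JV6314 was below the LLRC value of JV602. The means were 34.3 ± 12 and 88.6 ± 38.8 CPM (SD, n = 4), a log2 fold change of -1.37 with a standard error of 0.42 (unadjusted p = 0.0101, adjusted p = 0.567 in edgeR's quasi-likelihood test). It had the highest mean per kilobase of exon of all 9 members in LLRCs.

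Plat encodes tissue plasminogen activator, which converts plasminogen to the fibrin-cleaving enzyme plasmin (chromosome 8, 22757727 to 22782844, plus strand). It stood at 7.46, 4.02, 1.47 and 12.3 CPM in the LLRC group and at 2.88, 0, 9.79 and 9.67 CPM in the non-LRC group. LLRCs were lower only in JV624, and the library with 0 counts was again the non-LRC library of JV621. The log2 fold change was 0.18 with a standard error of 1.11 (unadjusted p = 0.874 in edgeR's quasi-likelihood test), and its sign turned in 6 of the alternatives, to between -0.35 and -0.01.

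Nos3 encodes endothelial nitric oxide synthase, which makes the gas that relaxes vascular smooth muscle (chromosome 5, 24364810 to 24384474, plus strand). Its counts were 0, 0, 0 and 4 in the LLRC libraries and 4, 2, 10 and 11 in the non-LRC libraries. It did not pass the filter and was not tested. The ratio of the non-LRC to the LLRC level, from 27 and 4 counts in all and scaled by library size, was 9.65 with an exact 95% interval of 3.36 to 38 that covers counting error only. The groups overlapped, and in JV621, with 0 and 2 counts, both values lay under the floor of 3 counts, so that no direction is given there. Of the exon bases of Nos3, 25.2% are shared with the antisense gene Gm15587 and 7.12% with Atg9b on the opposite strand, and reads there could not be assigned by counting without strand.

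Edn1 encodes endothelin-1, a strong constrictor of vessels (chromosome 13, 42301476 to 42307990, plus strand). Its values were 1.36, 8.87, 11.9 and 2.11 CPM in the LLRC group and 8.27, 29.7, 29.0 and 12.8 CPM in the non-LRC group. JV602 and JV6314 were low in both groups and JV621 and JV624 high in both, so that LLRCs were lower within all 4 mice while the groups overlapped. The means were 6.06 ± 5.16 and 19.9 ± 11 CPM (SD, n = 4), a log2 fold change of -1.72 with a standard error of 0.77 (unadjusted p = 0.0518, adjusted p = 0.962 in edgeR's quasi-likelihood test). With the mouse as a block the log2 fold change was -2.04 and the adjusted p 0.621 in the same test.

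Ednrb encodes the endothelin receptor type B, which on endothelium clears endothelin and triggers nitric oxide release (chromosome 14, 103814625 to 103844402, minus strand). It stood at 2.81, 5.68, 5.15 and 0.444 CPM in the LLRC group and at 32.7, 104, 106 and 303 CPM in the non-LRC group. JV6314 held both the lowest LLRC value, from 4 counts, and the highest non-LRC value, from 1538 counts. Within the other mice the non-LRC level was 11.6-fold (JV602), 18.3-fold (JV621) and 20.6-fold (JV624) the LLRC level. The means were 3.52 ± 2.40 and 136 ± 116 CPM (SD, n = 4), a log2 fold change of -5.28 with a standard error of 0.92, the lowest of the 8 members tested (unadjusted p = 0.000258, adjusted p = 0.11 in edgeR's quasi-likelihood test). When the non-LRC library of JV6314 was left out, it was -4.51 and the non-LRC mean 80.8 CPM. Over 22 alternatives the adjusted p lay between 4.43e-08 (DESeq2's Wald test) and 0.522, with 3 of them below 0.05, and limma gave 0.102. The log2 ratio of Ednrb to Edn1 within a library, from log2 CPM with a prior count of 2, averaged -0.65 ± 1.14 in LLRCs and 2.53 ± 1.34 in non-LRC cells (SD, n = 4), a comparison chosen after its values were seen and not tested.

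**Figure D2:**
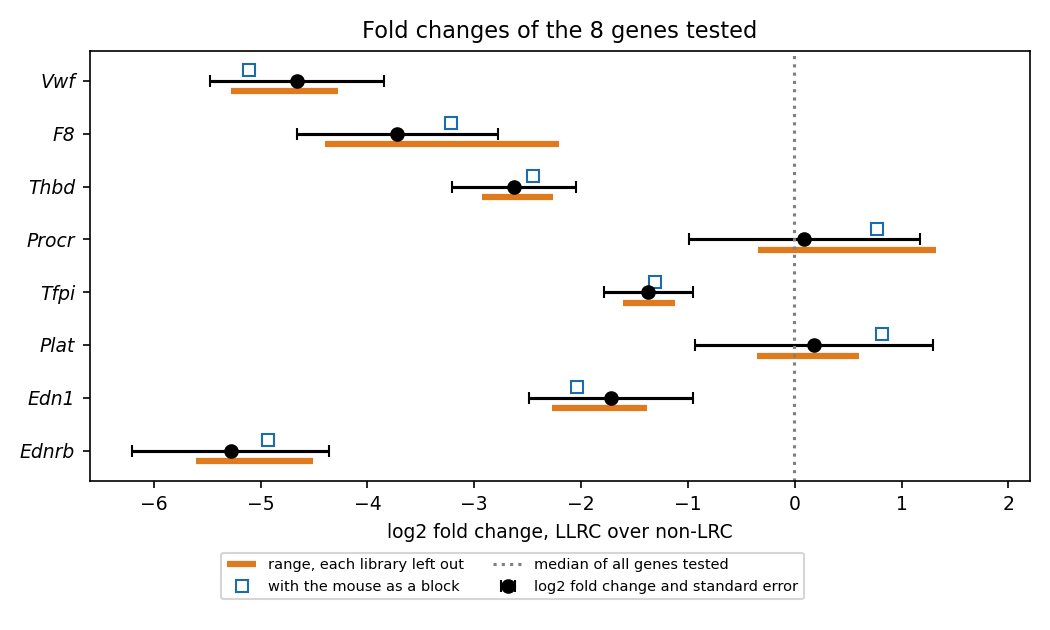
Log2 fold change, LLRC over non-LRC, of the 8 genes tested, as point and standard error from edgeR's quasi-likelihood fit, the range when each of the 8 libraries was left out (bar) and the value with the mouse as a block (square). Vwf and Ednrb lie below -4 in each fit with a library left out, and the ranges of Procr and Plat span 0.

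In single-gene exact permutation tests over the 8 libraries, the 4 genes with separate groups (Vwf, F8, Thbd and Ednrb) had a two-sided p of 0.0286 each, which is the smallest that 4 against 4 libraries can give, and they are 4 of 9 tests, unadjusted. This permutation does not use the pairing of libraries by mouse, and in the paired form 4 mice cannot give an exact two-sided p below 0.125, so no member could pass 0.05 there. The same tests gave permutation p values of 0.0571 for Tfpi and Nos3, 0.0857 for Edn1, 0.571 for Procr and 0.657 for Plat.

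Levels were also compared between the genes as CPM per kilobase of exon. In non-LRC cells the order of mean levels was Thbd (35.9), Ednrb (32.0), F8 (16.6), Tfpi (16.2), Edn1 (9.33), Vwf (3.73), Procr (1.82), Plat (0.895) and Nos3 (0.282), and the ranges of all neighbours in this order overlapped. In LLRCs the order was Tfpi (6.28), Thbd (5.82), Edn1 (2.83), Procr (1.95), F8 (1.26), Plat (1.01), Ednrb (0.825), Vwf (0.148) and Nos3 (0.0269). The ranges of all neighbours overlapped here too. The receptor Ednrb stood above its ligand Edn1 in mean level per kilobase in non-LRC cells and below it in LLRCs.

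Markers of endothelium were read beside the members. Of 18 endothelial markers 16 were tested, and all 16 had negative log2 fold changes with a median of -3.75. By edgeR's quasi-likelihood method 15 had an unadjusted p below 0.05 and 0 an adjusted one, where 3.56% of all genes tested were lower at an unadjusted p below 0.05. DESeq2's Wald test called 13 of the markers lower, where it called 1.29% of its genes lower. Markers such as these that are low in LLRCs could pass the filter through the non-LRC libraries alone, so the count of negative signs is no support for a difference. Their summed level was 37.4 to 103 CPM in LLRC libraries and 295 to 1752 CPM in non-LRC libraries, and none of them was at 0 in all libraries. The 9 members summed to 78.6 to 116 CPM and 289 to 986 CPM, and the highest sum of both lists was in the non-LRC library of JV621. Of the 9 sinusoidal markers 8 were tested and all 8 were negative (8 called by DESeq2's Wald test, 0 by edgeR's quasi-likelihood method), with a median of -3.25 and sums of 64.2 to 150 CPM against 362 to 2109.7 CPM. Stab2, a sinusoidal scavenger receptor that clears VWF and factor VIII, stood at 1.74 ± 1.35 and 16.8 ± 12.4 CPM (SD, n = 4). The share of these markers in the differences of the members was not tested.

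The members were therefore also expressed as a percentage of the summed endothelial markers in the same library, a description with no test. On this scale Vwf, F8, Ednrb, Tfpi and Edn1 overlapped between the groups, with Vwf at 0.571% to 4.72% in LLRCs and 3.87% to 11.9% in non-LRC cells. F8 stood at 7.48% to 35.2% and 5.75% to 27.6%, and Ednrb at 0.762% to 7.51% and 5.93% to 32.1%. Thbd was higher in each LLRC library, at 25.6% to 40.8% against 11.6% to 20.1%. Procr and Plat were also above all non-LRC libraries, at 3.22% to 12.2% against 0% to 1.39% and at 1.92% to 21.1% against 0% to 1.35%. That pattern, with all LLRC libraries above all non-LRC libraries, held for 85.4% of all genes tested on this scale and the reverse for 0.0809%, so it is no result about the 3 members that show it.

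**Figure D3:**
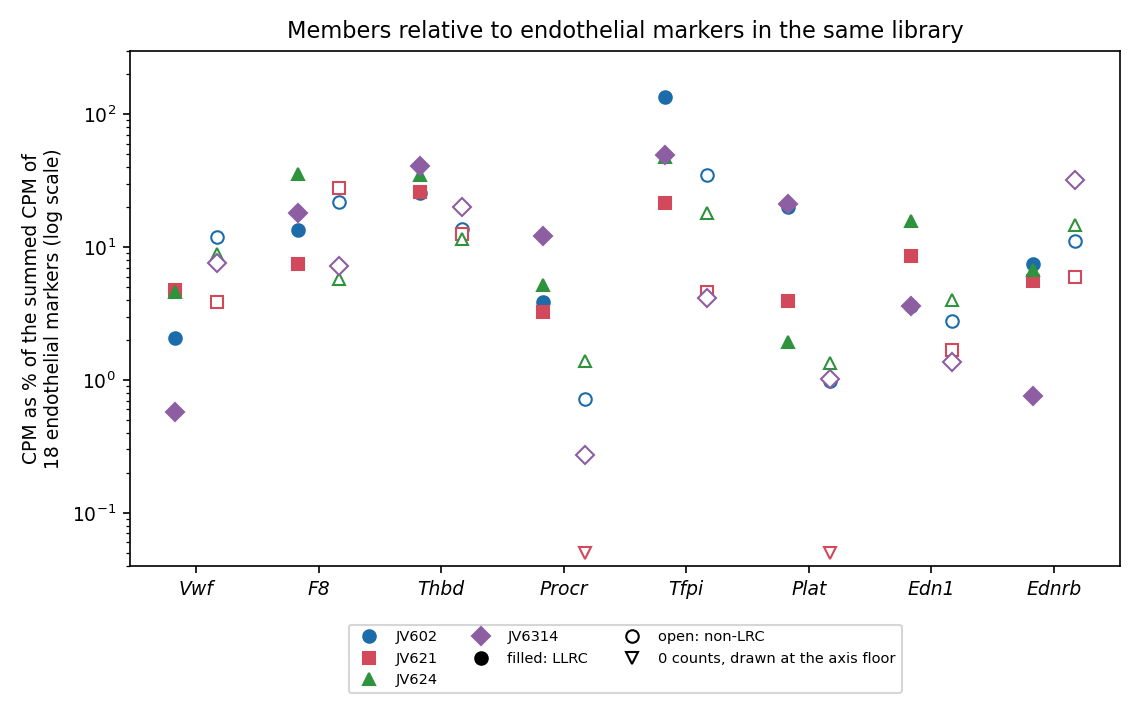
CPM of each member as a percentage of the summed CPM of 18 endothelial markers in the same library, on a log scale, with filled symbols for LLRC and open symbols for non-LRC libraries and Nos3 left out. Vwf, F8, Ednrb, Tfpi and Edn1 overlap between the groups, while Thbd, Procr and Plat lie higher in the LLRC libraries.

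Other cell types were read in the same way. Megakaryocyte and platelet markers, which would bring Vwf RNA of their own, summed to 2.04 to 5.00 CPM in the LLRC group and 0.835 to 11.6 CPM in the non-LRC group, with Ppbp and Treml1 at 0 counts in all libraries and Pf4, a platelet chemokine, at most at 4.93 CPM. Schwann and neural crest markers, a lineage in which Ednrb is known, summed to 10.4 to 25.1 and 15.4 to 24.6 CPM, with Sox10 and Foxd3 at 0 in all libraries. Stellate and fibroblast markers summed to 279 to 922 and 720.5 to 2958 CPM with a median log2 fold change of -2.15 over the 6 tested, and Lrat, the stellate cell retinol enzyme, stood at 5.92 ± 2.12 and 46.6 ± 22.7 CPM (SD, n = 4). Mesothelial markers summed to 859 to 1615 and 1158 to 3051 CPM, a median of -1.26 over 6 tested, with Msln at 4.56 to 25.5 and 9.4 to 193 CPM. The 3 lymphatic markers tested had a median of -1.19, with sums of 215 to 323 and 216 to 324 CPM and Ccl21a and Mmrn1 at 0. Hepatocyte markers summed to 3316 to 4349.8 and 2434 to 6552 CPM with a median of -1.52 over 9 tested, and the 12 cholangiocyte markers had a median of 0.30. Of 10 Kupffer and leukocyte markers 3 were tested, with sums of 16 to 33.7 and 21.5 to 48.5 CPM and Cd3e and Cd79a at 0. Among the 3, Ptprc had a log2 fold change of 3.27 (unadjusted p = 0.0468, adjusted p = 0.957 in edgeR's quasi-likelihood test), and the other 2 were negative. Pancreatic acinar markers reached 1352 CPM in the non-LRC library of JV6314 and at most 23.5 CPM in the other libraries, with Cpa1 at 56.0 CPM there and 0 elsewhere. The part of stellate, mesothelial, hepatocyte and acinar cells in the values of the members was not tested. Without the non-LRC library of JV6314, and likewise without that of JV621, 5 members had an unadjusted p below 0.05 and 0 an adjusted one in the edgeR fit.

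**Figure D4:**
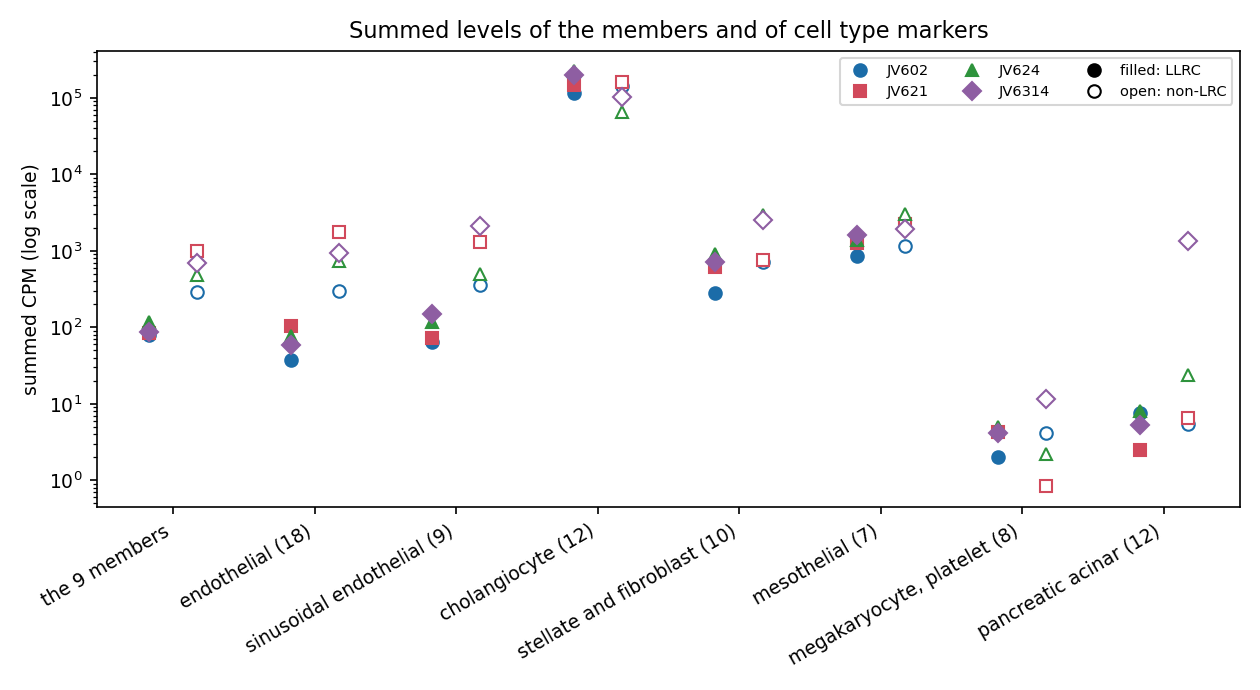
Summed CPM of the 9 members and of 7 marker lists (number of genes listed in brackets) in each library, on a log scale, with filled symbols for LLRC and open symbols for non-LRC libraries. The members and both endothelial lists separate the groups (members 78.6 to 116 against 289 to 986 CPM), and the acinar list is high only in the non-LRC library of JV6314.

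The other genes of hemostasis and vascular tone were taken from 8 lists with 87 entries, of which 84 matched a row and 56 passed the filter. By edgeR's quasi-likelihood method 0 of the 56 had an adjusted p below 0.05. At an unadjusted p below 0.05, 10 were lower and 1 higher in LLRCs, beside the 3.56% and 1.6% of all genes tested given above, and the median log2 fold change was -0.44. DESeq2's Wald test called 6 of them, all lower in LLRCs: F2r, Mmrn2, Esam, Stab2, Ece1 and Ptgs1. Over all its genes that test called 1.29% lower and 0.366% higher.

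The list of thrombin receptors and platelet adhesion had the lowest median, -3.43 over 6 genes tested, with 4 of them lower at an unadjusted p below 0.05. Of its 12 genes 6 were not tested. Genes of this list that are low in LLRCs could pass the filter through the non-LRC libraries alone, so neither value is support for a difference. Mmrn2, an endothelial matrix protein, stood at 1.74, 2.01, 0.294 and 1.55 CPM in the LLRC group and 18.9, 54.5, 19.4 and 58.0 CPM in the non-LRC group, with no overlap, a log2 fold change of -4.72 (standard error 0.70) and an adjusted p, 0.0809 by edgeR's quasi-likelihood method, that was the smallest reached and was shared with other genes. F2r, the main thrombin receptor of vessel cells, averaged 5.53 ± 6.19 and 55.5 ± 31.7 CPM (SD, n = 4), and Esam, an adhesion molecule of endothelium and platelets, 2.98 ± 1.02 and 35 ± 26.5 CPM. The LLRC mean of F2r rested on JV621, at 14.7 CPM against 1.62 to 4.11 CPM in the other LLRC libraries, and its log2 fold change of -3.32 was -4.45 without that library. Mmrn2, F2r and Esam are in the study's own list too, and Esam is also one of the 18 endothelial markers. F2rl3 and Mmrn1, of the same list, had 0 counts in all libraries.

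The coagulation factors, most of them made by hepatocytes, had a median of -1.34 over 12 tested, with 1 at an unadjusted p below 0.05, F10, the factor that activates prothrombin, at 1.26, 3.90, 3.82 and 1.78 CPM in the LLRC group and 2.13, 5.01, 30.1 and 15.2 CPM in the non-LRC group. Kng1 (kininogen) and F2 (prothrombin) were likewise highest in the non-LRC libraries of JV624 and JV6314, with Kng1 at 167 and 270.1 CPM there and at most 44.1 CPM elsewhere. The summed hepatocyte markers were also highest in these 2 libraries. Among natural anticoagulants (median -0.22 over 8) Serpinc1, antithrombin, stood at 256 and 173 CPM in the same libraries and at most at 27.5 CPM elsewhere, whereas Pros1, protein S, and Anxa5, annexin A5, had log2 fold changes of -0.33 and 0.26. In the plasminogen list (median -0.21 over 8) none reached an unadjusted p below 0.05 in edgeR's quasi-likelihood test. There Plg, plasminogen, had a log2 fold change of -1.09, Serpinf2, its plasmin inhibitor, one of -1.53 that followed 61.4 CPM in the non-LRC library of JV624, and S100a10, a plasminogen-binding surface protein, one of -0.23. Leaving out that library gave -0.41 for Plg and 0.86 for Serpinf2.

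Of the genes that store, release or clear VWF and factor VIII (median -0.28 over 8), Stab2 had a log2 fold change of -3.25 (-2.61 without the non-LRC library of JV6314) with no overlap between groups (adjusted p = 0.358 in edgeR's quasi-likelihood test). Lrp1, a clearance receptor for factor VIII, had a log2 fold change of -0.70. In the nitric oxide and cGMP list (median -0.22 over 8) Ddah1, which degrades an inhibitor of nitric oxide synthase, had a log2 fold change of -0.55, and Gucy1a1, a subunit of the nitric oxide receptor, one of -1.59 that became 1.20 without the non-LRC library of JV624.

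In the endothelin list 3 of 7 genes passed the filter. Ece1, the enzyme that cuts endothelin to its active form, stood at 53.6, 74.7, 71.3 and 51.2 CPM in the LLRC group and 107, 95.8, 115 and 179 CPM in the non-LRC group, without overlap (log2 fold change -0.99, standard error 0.29, adjusted p = 0.546 in edgeR's quasi-likelihood test). Ece2, a related enzyme, and Mme, a peptidase that degrades endothelin, had log2 fold changes of -0.44 and 0.05. Of 3 prostanoid genes tested, Ptgs1, cyclooxygenase 1, stood at 8.24, 10.5, 8.53 and 5.22 CPM in the LLRC group and 24.0, 34.5, 26.2 and 49.3 CPM in the non-LRC group, again without overlap (log2 fold change -2.04, standard error 0.40, adjusted p = 0.136 in edgeR's quasi-likelihood test). Ptger4, a prostaglandin E2 receptor, averaged 3.41 ± 2.92 and 0.441 ± 0.597 CPM (SD, n = 4) with overlapping groups and was the only pathway gene higher in LLRCs at an unadjusted p below 0.05 (log2 fold change 2.84, standard error 1.22, unadjusted p = 0.0446, adjusted p = 0.951 in edgeR's quasi-likelihood test). Its non-LRC counts were 4, 0, 8 and 0, and the fold change was 2.17 without the LLRC library of JV621 and 4.03 without the non-LRC library of JV624. Tbxas1, thromboxane synthase, had a log2 fold change of 0.30, which was -0.11 without the non-LRC library of JV621 and 1.11 without that of JV602.

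**Figure D5:**
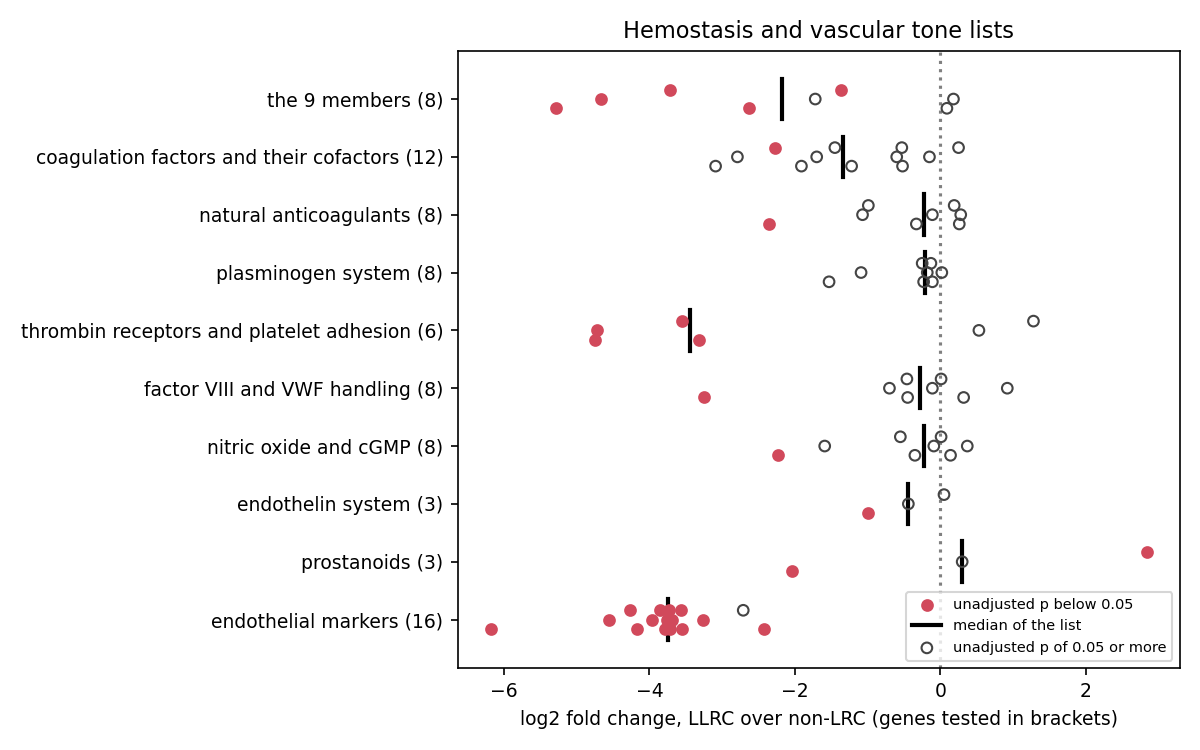
Log2 fold change, LLRC over non-LRC, of each gene tested in the 9 members, 8 pathway lists and the endothelial markers, with filled points at an unadjusted p below 0.05 in edgeR's quasi-likelihood test and a bar at the median of each list (number tested in brackets). The list of thrombin receptors and platelet adhesion has the lowest pathway median, -3.43, beside -3.75 for the endothelial markers, and Esam is in both lists.

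The members did not all vary alike over the 8 libraries. The correlation of each member with the mean profile of the 8 tested, to which it contributes, was 0.941 for Vwf, 0.919 for Ednrb, 0.846 for Thbd, 0.833 for Edn1, 0.730 for F8, 0.679 for Tfpi, -0.020 for Procr and -0.114 for Plat (Pearson, log2 CPM). Vwf and Ednrb were the closest pair at 0.97, and Procr and Plat correlated at 0.81 and share 0 counts in the same library. The 8 libraries fall into the 2 groups, and all genes of a library share its depth and scaling, so these values describe the groups as much as the libraries. The 5 other genes closest to the mean profile were Gata4 (0.984), Tdo2 (0.961), Tgfbi (0.959), Mup-ps4 (0.959) and Hsd11b1 (0.958). Gata4, a transcription factor, averaged 0.300 CPM in the LLRC group and 6.36 CPM in the non-LRC group, and Mup-ps4 is a pseudogene whose reads may belong to its near-identical family.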

How the data were processed

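Counts of RNA-seq reads were used from 4 LLRC (EGFP+) and 4 non-LRC (EGFP-) libraries, paired within 4 mice and grouped by the sample labels. The authors counted aligned reads per gene on GRCm38.p4 exons, using HTSeq 0.5.3p9 (union mode, strand ignored). The aligner is not given in the sources used here. The deposited values are raw counts for 46603 genes, and the authors' table of their own comparison (fold changes and p-values) was not used.

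Genes that passed filterByExpr (13605) were scaled by TMM and tested with edgeR 4.0.16 (R 4.3.3; quasi-likelihood test with no covariate, Benjamini-Hochberg adjustment over all genes tested, threshold 0.05). Fold changes are LLRC over non-LRC. DESeq2 1.42.0, limma 3.58.1, other filters and scalings, a mouse block and leaving out libraries or mice were alternatives. Single genes were also tested by exact permutation. Promoter sequences are RefSeq's on GRCm38.p6, and coordinates and exon lengths are from GENCODE M21, which with a table of gene names gave symbols for 46091 identifiers. The tests were checked on simulated data.

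The 2 libraries of a mouse come from the same animal by the labels, so the mouse pairs them, and across genes the residuals of both libraries of a mouse had correlations of 0.0961, 0.0737, 0.00334 and 0.171. Genes named were the members, at most 3 genes per pathway list with the smallest p, sort and endothelial markers, defining markers of other cell types and the 5 genes closest to the mean profile. Listed genes at 0 counts in all libraries were also named. The members and lists were chosen with earlier results of these data known. Pathway symbols without a matching row were not analysed here. Some genes that this rule selects are not reported here. Total counts of 4670132 to 9851819 per library set the precision for low genes.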

Additional observations from a re-analysis of the deposited data

Results flagged for a closer look

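F8 in the non-LRC library of JV621 stood apart from the other non-LRC libraries, at 484 CPM (2317 counts) against 41.8 to 68.1 CPM, a gap of 0.941 of the group's whole range, past Dixon's limit for a group of 4. Nos3 in the LLRC library of JV6314 was the only nonzero LLRC value, 0.444 CPM from 4 counts. With the other LLRC libraries at 0, any nonzero value would stand out in this way, so this is no more than a description of counts near the floor of 3. In all 18 groups of 4 libraries were examined, and chance flags about 1 in 20 groups. The cause of neither value was tested.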

How the results depend on the processing

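Of the 9 members, 0 had an adjusted p below 0.05 in edgeR's quasi-likelihood test, and this count was 3 by DESeq2's Wald test, 4 by edgeR's exact test without a filter and 2 with the newer quasi-likelihood dispersion (Vwf and Ednrb). Of the pathway genes 0 passed, against 6, 4 and 1 by the same tools and 1 with no expression filter, and the cause of these shifts was not tested. With the mouse as replicate block 0 members and 0 pathway genes passed, 6 members had an unadjusted p below 0.05 and the median log2 fold change was -2.24, so the paired fit changed no call. Leaving out each library in turn gave 0 members called, 5 to 6 members at an unadjusted p below 0.05 and a median of -2.50 to -1.83, and leaving out both libraries of a mouse gave 4 to 5 members and a median of -2.47 to -1.87. Over all 22 alternatives the median stayed between -2.60 and -1.72. The log2 fold change of Procr, 0.09, became -0.22 without TMM scaling and ranged from -0.34 to 1.32 with single libraries left out, from -0.49 (JV6314) and -0.23 (JV621) to 1.32 with mice left out. It turned negative without the non-LRC libraries of JV602 (-0.11), JV621 (-0.30) and JV6314 (-0.04) and without the LLRC library of JV6314 (-0.34). That of Plat, 0.18, became -0.01 without TMM scaling and ranged from -0.35 to 0.60 with single libraries left out, with -0.04, -0.22 and -0.35 without the non-LRC libraries of JV602 and JV621 and the LLRC library of JV6314, and -0.14 and -0.06 without the mice JV602 and JV621 and 0.92 without JV624. Of 177 values of single members under alternatives, 155 kept their direction and their side of the threshold, 9 passed it and 13 changed sign. The F8 fold rested in part on the non-LRC library of JV621 and the Ednrb fold on that of JV6314. Low counts limit the values of Vwf, Ednrb and Nos3 in some LLRC libraries, and the non-LRC library of JV621 held 0 counts of Procr and Plat.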
